A study of Mus musculus with 12 samples.

Results

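Dnmt3a, Dnmt3b and Dnmt3l, the genes of de novo DNA methylation, were followed through every transcript model that carries their names in 12 RNA-seq libraries made from mouse embryonic stem cells (mESCs). The genes are 3 of the 39017 genes in the deposited gene table and hold 38 of the 94647 transcripts, 18 of Dnmt3a, 12 of Dnmt3b and 8 of Dnmt3l. J1 is a male wild-type line with intact Dnmt3 genes. 3B3L (3B3-3l in the sample labels) is a Dnmt3a-/- Dnmt3b-/- line that carries a Dnmt3b transgene and a Flag-tagged Dnmt3l transgene, both under the constitutive CAG promoter, beside its own Dnmt3l gene. Each line was grown in serum or in 2i, which is N2B27 medium with 1 µM of the MEK inhibitor PD0325901 and 3 µM of the GSK3 inhibitor CHIR99021, giving 4 groups of 3 biological replicates, and LIF was present throughout. Serum cultures of J1 grew on feeder cells, which were depleted for analysis and before the change to 2i, while 3B3L grew on gelatin. Line and feeders therefore cannot be told apart in serum, nor can medium and feeders within J1. The same limit holds for the difference of the 2i effects between the lines. 3B3L is a single line, and an effect of its transgenes cannot be told apart from any other feature of that line.

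DNMT3A and DNMT3B place methyl groups on unmethylated cytosines, mostly in CpG dinucleotides, while DNMT3L lacks a working catalytic domain and stimulates the enzymes by binding to them. Dnmt3a has an upstream start, which gives the longer protein, and an internal start that is known for its use in mESCs. Dnmt3b is spliced in several ways, and forms that lack exons near the end of the catalytic domain are regarded as inactive. All of these genes are known to be repressed when mESCs pass from serum to 2i, a state of low DNA methylation in which PRDM14 acts as their repressor. The study made 3B3L so that DNA methylation would stay high in 2i, and the comparisons below ask how far each gene and each of its transcripts followed the medium in either line.

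Libraries held 37050652 to 44515395 estimated reads. CPM denotes estimated reads per 1000000 library reads after TMM scaling, and 3 reads, taken as the lowest level that can be told from 0, corresponded to 0.0673 to 0.0837 CPM in the transcript tables. These floors cover counting error only. Of 10 mESC markers, 9 were in the gene table and all 9 stood above 3 reads in every library, with a summed level of 4682 to 6785 CPM. The 12 fibroblast markers summed to 61.83 to 67.02 CPM in J1 serum, 78.56 to 89.93 in 3B3L serum, 30.41 to 31.05 in J1 2i and 19.04 to 19.44 in 3B3L 2i. Their part in the results on the members was not tested. The p-values measure the spread between the replicates of a line, which the labels call biological without further detail, and in such bulk samples fewer cells that express a gene cannot be told apart from less RNA per cell.

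Among the features that separate the transcripts are splicing at 2 places in Dnmt3b and starts at several places in Dnmt3a and Dnmt3l. These sequences are shown first, and a further difference at exon 16 of Dnmt3b is described below. Dnmt3b (chr2:153649411-153687730, GRCm38, ENSMUSG00000027478) has 23 exons in its most abundant transcript, Dnmt3b-009, whose coding sequence spans 2583 bases or 860 codons. Exons 21 (70 bases, chr2:153509344-153509413 on the plus strand of NCBIM37, the build of the exon models) and 22 (119 bases, chr2:153510095-153510213) are missing from Dnmt3b-005 to Dnmt3b-008. Together they hold 189 coding bases, a multiple of 3, so that the reading frame goes on after the gap, and Dnmt3b-007 has 796 codons. In the lines that follow, capitals mark the 2 exons in Dnmt3b-009, and then the first bases of exon 23 where it joins exon 20 directly.
Dnmt3b exons 21 and 22 with flanks: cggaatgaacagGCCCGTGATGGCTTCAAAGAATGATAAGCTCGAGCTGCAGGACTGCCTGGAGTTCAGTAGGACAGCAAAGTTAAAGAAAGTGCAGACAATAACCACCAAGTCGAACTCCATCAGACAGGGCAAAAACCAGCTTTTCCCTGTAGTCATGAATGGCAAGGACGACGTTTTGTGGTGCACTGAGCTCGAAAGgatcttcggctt
Dnmt3b exon 20 joined to exon 23: cggaatgaacagGATCTTCGGCTT
The second place is exon 10, which holds 60 bases (chr2:153496585-153496644 in NCBIM37) in the coding sequence and is missing from Dnmt3b-003, Dnmt3b-004, Dnmt3b-006 and Dnmt3b-008. Capitals mark exon 10, and in the second line the start of exon 11 where it follows exon 9.
Dnmt3b exon 10 with flanks: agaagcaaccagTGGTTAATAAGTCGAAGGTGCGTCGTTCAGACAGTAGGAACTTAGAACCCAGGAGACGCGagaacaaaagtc
Dnmt3b exon 9 joined to exon 11: agaagcaaccagAGAACAAAAGTC

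Start windows of 300 bases, from 250 before to 50 after a start, are printed for 4 starts in RefSeq, 2 of them in Dnmt3a, with each CG dinucleotide in capitals. They come from RefSeq in the GRCm38.p6 build and run along the plus strand, on which all 3 genes lie. In Dnmt3a (chr12:3801559-3914443, ENSMUSG00000020661), the upstream window (chr12:3806910-3807209, the start of Dnmt3a-006) held 47 CG, and 1.4% of 32851 windows of all genes held as many. The internal window (chr12:3891494-3891793, the start of Dnmt3a-201, a model without reads that begins 16 bases after Dnmt3a-005) lies 84584 bases downstream and held 18 CG, a count that 29.7% of windows reach. The Dnmt3b window (chr2:153649199-153649498) held 30 CG, reached by 11.7%. In Dnmt3l (chr10:78042287-78063622, ENSMUSG00000000730) the window of Dnmt3l-003 (chr10:78049592-78049891) held 4 CG, reached by 68.6%, below the median of 7. The letters describe these windows only, and the CAG-driven transgenes do not use them.
Dnmt3a upstream start: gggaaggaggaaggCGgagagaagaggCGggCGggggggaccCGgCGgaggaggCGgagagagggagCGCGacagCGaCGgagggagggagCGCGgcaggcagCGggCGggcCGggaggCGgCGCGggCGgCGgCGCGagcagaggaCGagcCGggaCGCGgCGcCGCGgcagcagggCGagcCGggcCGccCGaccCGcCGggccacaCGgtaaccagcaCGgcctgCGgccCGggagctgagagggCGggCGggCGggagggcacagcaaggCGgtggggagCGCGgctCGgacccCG
Dnmt3a internal start: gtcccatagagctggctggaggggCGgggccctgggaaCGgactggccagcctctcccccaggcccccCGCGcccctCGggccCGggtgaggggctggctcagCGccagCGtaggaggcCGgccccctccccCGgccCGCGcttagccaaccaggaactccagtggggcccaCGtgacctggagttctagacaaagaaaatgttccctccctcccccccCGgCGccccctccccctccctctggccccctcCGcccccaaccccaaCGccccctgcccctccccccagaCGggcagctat
Dnmt3b start: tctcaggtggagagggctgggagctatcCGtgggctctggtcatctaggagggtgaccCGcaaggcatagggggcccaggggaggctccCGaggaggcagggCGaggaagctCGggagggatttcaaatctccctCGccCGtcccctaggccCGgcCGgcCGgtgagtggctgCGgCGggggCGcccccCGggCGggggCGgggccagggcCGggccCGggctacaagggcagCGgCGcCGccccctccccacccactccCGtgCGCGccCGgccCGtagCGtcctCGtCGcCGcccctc
Dnmt3l start of Dnmt3l-003: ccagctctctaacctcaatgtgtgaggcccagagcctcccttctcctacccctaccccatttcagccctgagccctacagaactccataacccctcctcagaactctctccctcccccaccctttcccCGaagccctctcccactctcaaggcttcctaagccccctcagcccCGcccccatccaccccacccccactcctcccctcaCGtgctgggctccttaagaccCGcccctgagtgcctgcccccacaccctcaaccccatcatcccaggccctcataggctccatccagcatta

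Dnmt3a, one of the 2 catalytic enzymes and a disrupted gene in 3B3L, stood highest in J1 serum at 167.3, 166.1 and 165.8 CPM in replicates 1, 2 and 3. In J1 2i it was at 44.45, 38.93 and 41.1 CPM. In 3B3L it was at 34.27, 32.61 and 29.36 CPM in serum and at 4.929, 5.074 and 3.997 in 2i. No group overlapped another, so reads of the disrupted gene remained in every 3B3L library and were fewer than in any J1 library. Which exons the knockout alleles lack is not given in the sources used here, and reads in exons outside them would still count. In 2i Dnmt3a fell by 2.00 ± 0.07 (SE) on the log2 scale in J1 (edgeR adjusted p = 8.46e-13) and its change was -2.78 ± 0.09 in 3B3L (edgeR adjusted p = 1.77e-13), to 24.9% and 14.5% of its serum CPM. The line difference was -2.38 ± 0.07 in serum and -3.15 ± 0.09 under 2i (edgeR adjusted p = 2.26e-11 and 1.3e-12). With offsets for the mean transcript length of the gene in each library, these differences between the lines were -1.45 and -1.57, still called (edgeR adjusted p = 5.95e-08 and 4.13e-08).

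Dnmt3b, the other catalytic enzyme, held 426.9, 408.1 and 404.1 CPM for J1 serum, against 44.06, 40.99 and 47.24 CPM for J1 2i. In 3B3L it held 926.9, 879.9 and 865.7 CPM in serum and 913.5, 935.9 and 935 CPM in 2i. The media did not overlap in J1 and did in 3B3L, where every library lay above all J1 libraries. Dnmt3b fell by 3.23 ± 0.06 in J1 2i (edgeR adjusted p = 8.22e-16), to 10.7% of serum, and differed by 0.06 in 3B3L (95% interval -0.05 to 0.17, edgeR adjusted p = 0.332). The 3B3L level exceeded that of J1 by 1.11 ± 0.05 in serum and by 4.40 ± 0.06 in 2i, with edgeR adjusted p = 1.03e-09 and 1.54e-16.

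Dnmt3l, the cofactor, stood at 284.6, 285 and 285.4 CPM for J1 serum, against 55.48, 47.93 and 55.12 CPM for J1 2i. The 3B3L libraries held 510.7, 495.5 and 447.6 CPM in serum and 285.1, 290 and 294.2 CPM in 2i. Unlike Dnmt3b, it was lower in 2i in both lines, and the 3B3L 2i libraries came to lie beside those of J1 serum. The change in 2i was -2.43 ± 0.06 in J1 and -0.74 ± 0.06 in 3B3L (edgeR adjusted p = 2.85e-14 and 1.37e-08). Counted in reads, J1 serum exceeded J1 2i by 232 CPM (SD of the difference 4.28) and 3B3L serum exceeded 3B3L 2i by 195 CPM (SD 33.2). Its level in 3B3L exceeded that in J1 by 0.77 ± 0.06 in serum and by 2.46 ± 0.06 in 2i, with edgeR adjusted p = 1.2e-07 and 9.41e-13. Between 3B3L 2i and J1 serum, where line and medium go together, it differed by 0.02 (95% interval -0.10 to 0.15, edgeR adjusted p = 0.733). Dnmt3b exceeded its J1 serum level there by 1.17 ± 0.05, and the difference of Dnmt3a was -5.15 ± 0.09, or -3.90 with length offsets (edgeR adjusted p = 1.38e-11 and 3.32e-16 without offsets).

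**Figure D1:**
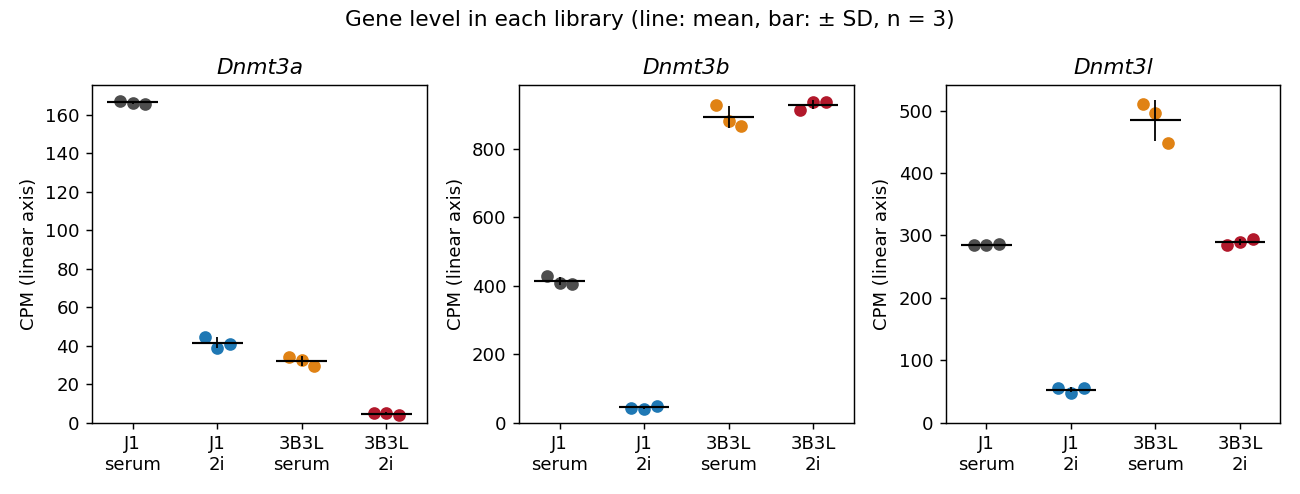
Gene level of Dnmt3a, Dnmt3b and Dnmt3l in CPM on linear axes that start at 0, with 1 point per library, the group mean as a line and the SD as a bar (n = 3). Dnmt3b in 3B3L stayed between 865.7 and 935.9 CPM in both media, while Dnmt3a fell in both lines and Dnmt3l in 3B3L 2i lay beside J1 serum.

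The effect of 2i differed between the lines in the test of the difference for all 3 genes. The difference of the effects, 3B3L minus J1, was 3.29 ± 0.08 for Dnmt3b, 1.69 ± 0.08 for Dnmt3l and -0.77 ± 0.11 for Dnmt3a (edgeR adjusted p = 4.32e-13, 2.42e-09 and 7.99e-05). For Dnmt3a the call depended on transcript length, since with length offsets the difference was -0.13 (edgeR adjusted p = 0.501). In J1, 3 of 3 members were lower in 2i, where 32.9% of all 17885 genes tested were called lower. In 3B3L, 2 of 3 were lower against 32.7% of all genes. The lines differed with 1 member lower (17.2% of genes in serum, 22.9% in 2i) and 2 higher (21.5% and 23%), and in the difference of the effects 18.3% of genes were called lower and 16.3% higher. Between 3B3L 2i and J1 serum, 1 member was lower and 1 higher (33.6% and 34.1% of genes, 67.7% in all).

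Levels of different genes were set beside each other per kilobase of effective transcript length and per 1000000 TMM-scaled reads. On this scale J1 serum had 192 ± 0.916 of Dnmt3l, 112 ± 4.18 of Dnmt3b and 58.3 ± 0.812 of Dnmt3a (SD, n = 3). In J1 2i the levels were 35.9 ± 2.71, 12.4 ± 0.756 and 11.7 ± 0.898, with Dnmt3b and Dnmt3a alike within their spread. In 3B3L serum they were 328 ± 20.5, 259 ± 6.07 and 21.4 ± 1.72, and in 3B3L 2i 193 ± 3.96, 260 ± 3.57 and 3.92 ± 0.621, so that Dnmt3b took the first place in the order that Dnmt3l held elsewhere. Dnmt3a was lower in J1 2i than in 3B3L serum per length, the reverse of their order in CPM, and this pair was not tested.

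The ratio of Dnmt3l RNA to Dnmt3b RNA moved in opposite directions in the lines. These ratios count RNA of all models of a gene, and the balance of cofactor to active enzyme was not tested. Dnmt3b forms that skip the pair of exons near the end, regarded as inactive, held 41.27% of its TPM in J1 2i. Reads of the disrupted Dnmt3a in 3B3L count too, and short models described below held 46.29% of its TPM in 3B3L serum. The level of Dnmt3l per length was 1.7 times that of Dnmt3b in J1 serum (range 1.64 to 1.76 over libraries) and 2.9 times in J1 2i (2.84 to 3.0). In 3B3L it was 1.26 times in serum (1.19 to 1.31) and 0.743 times in 2i (0.734 to 0.752). No group overlapped another, and the ratio rose by 0.77 in J1 2i and fell by 0.77 in 3B3L 2i on the log2 scale. Against Dnmt3a and Dnmt3b summed, Dnmt3l stood at 1.12 in J1 serum, 1.49 in J1 2i, 1.17 in 3B3L serum and 0.732 in 3B3L 2i, and here the lines overlapped in serum. The level of Dnmt3b was 1.93 times that of Dnmt3a in J1 serum, 1.06 in J1 2i (0.999 to 1.11 over libraries), 12.1 in 3B3L serum and 67.0 in 3B3L 2i. With 3 libraries against 3, the exact two-sided permutation test cannot go below p = 0.1, so that no comparison of ratios or of the shares that follow can pass 0.05. Of 16 ratio comparisons, 15 reached p = 0.1 (0.107 after adjustment), and Dnmt3l to both enzymes between the lines in serum gave an exact p = 0.3.

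At the level of transcripts, 5 of the 38 models (Dnmt3a-007, Dnmt3a-012, Dnmt3a-015, Dnmt3a-201 and Dnmt3b-008) had no read in any library, and 25 passed the filter on low counts. In J1 2i, 14 were called lower and 1 higher, beside 16.1% and 14% of all 44389 transcripts tested (30.1% in either direction). In 3B3L 2i, 11 were called, each of them lower, beside 15.8% lower and 29.6% in either direction. Without 3B3L serum replicate 3 the count was 7. In 3B3L against J1, 7 were higher and 5 lower in serum (4.65% and 5.47% of transcripts, 10.1% in all) and 8 higher and 5 lower in 2i (6.36% and 7.84%, 14.2% in all). In the difference of the effects of 2i, 5 were higher and 1 lower (4.1% and 4.26%, 8.36% in all). Usage, the change of a transcript against the others of its gene, was called for 7 member transcripts between the lines in serum, 5 in 2i and 2 in the difference of effects, beside 0.809%, 0.598% and 0.843% of all 33108 transcripts. Against J1 serum, 3B3L 2i had 3 member transcripts higher and 12 lower (14.5% and 17.7%, 32.2% in all), with usage called for 8 (2.25%). Several called transcripts passed the filter only through the group in which they were high, so these counts are a description. Reads shared by overlapping transcripts were split by the quantifier, whose error was not used here, and transcripts that share a start or a coding sequence were therefore also summed into classes, which were chosen after the data were seen. In the table with these sums, 30.1%, 29.5%, 10.1% and 14.2% of features were called for 2i in J1, 2i in 3B3L and the lines in serum and 2i, with 4.64% higher in 3B3L in serum and 6.34% in 2i.

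Dnmt3a reads came mainly from complete transcripts of both starts in J1. In 3B3L they came mainly from the internal start and from short models that begin at the upstream start. The class of complete transcripts from the upstream start (Dnmt3a-001 and Dnmt3a-006, coding sequence 2727 bases) held 85.28, 87.35 and 81.53 CPM for J1 serum, against 27.7, 25.31 and 26.22 CPM for J1 2i. In 3B3L it held 1.944, 1.717 and 1.236 CPM in serum and 0.3462, 0.2954 and 0.225 CPM in 2i. The groups did not overlap, and the 3B3L 2i libraries were the closest to the limit of 3 reads. The difference, 3B3L minus J1, was -5.69 ± 0.15 in serum and -6.49 ± 0.17 under 2i (edgeR adjusted p = 1.9e-07 and 8.47e-08). Its part of the gene was also lower, with a usage difference of -2.28 and -2.30 against the other transcripts of Dnmt3a (edgeR adjusted p = 8.85e-18 and 1.03e-14), while usage was called for 0.795% and 0.595% of all features tested. Dnmt3a-006 itself was assigned no read in 3B3L serum, at least 832-fold below J1 serum with 3B3L serum set at 3 reads per library. Dnmt3a-001, with the same coding sequence, took 73.6, 71 and 47.5 reads there. In 3B3L 2i replicate 1 the split was reversed, with 15.2 reads for Dnmt3a-006 and 0 for Dnmt3a-001. The fold of Dnmt3a-006 thus depends on this split and is no bound for the class, which averaged 84.72 CPM in J1 serum and 1.632 in 3B3L serum.

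The complete transcript from the internal start (Dnmt3a-005, coding sequence 2070 bases) was at 83.38, 79.47 and 83.84 CPM for J1 serum, against 14.07, 10.2 and 12.68 CPM for J1 2i. In 3B3L it was at 21.96, 22 and 20.25 CPM in serum and 1.846, 2.977 and 1.925 CPM in 2i. No group overlapped another. These reads do not compare the starts with each other, since the transcripts differ in length. The shares of TPM given further on are scaled by the annotated lengths, 2328 bases for Dnmt3a-005 against 9685 and 8737 for Dnmt3a-001 and Dnmt3a-006. They hold only as far as these lengths do, and Dnmt3a-201, with 5424 bases and the internal coding sequence, was assigned no reads. The change in 2i of the internal class was -2.74 ± 0.17 in J1 and -3.25 ± 0.18 in 3B3L (edgeR adjusted p = 8.14e-07 and 3.59e-07), and that of the upstream class -1.68 ± 0.12 and -2.48 ± 0.19 (edgeR adjusted p = 3.3e-06 and 3.83e-06). The smaller part of the internal class in J1 2i was called (usage -0.46, edgeR adjusted p = 0.028, beside 2% of all features) but lost its call without J1 serum replicate 1, 2 or 3 and without J1 2i replicate 1 or 2, at an adjusted p of 0.0537 to 0.178. Its difference between the lines was -1.94 ± 0.16 in serum and -2.45 ± 0.17 under 2i (edgeR adjusted p = 6.72e-05 and 1.71e-05).

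A pair of short Dnmt3a models moved the other way. Dnmt3a-017 and Dnmt3a-008 begin at the upstream start, hold 6 and 8 exons and end within the gene, where the annotation marks their 3' end as not found. Dnmt3a-017 has 76 bases outside the complete transcripts and Dnmt3a-008 has 0. The levels of these models thus rest largely on how the quantifier split shared reads. Together they held 0, 0.1001 and 0.1953 CPM for J1 serum, against 1.279, 0.9458 and 1.509 CPM for J1 2i. In 3B3L they held 9.562, 8.367 and 7.914 CPM in serum and 1.708, 0.977 and 1.3 CPM in 2i. They were almost without reads in J1 serum alone and highest in 3B3L serum. The class was higher in 3B3L than in J1 in serum by 6.44 ± 0.71 (edgeR adjusted p = 0.000355; usage 6.13, adjusted p = 5.35e-13) and was not called in 2i (0.09, 95% interval -1.13 to 1.31, edgeR adjusted p = 0.957). It rose in J1 2i by 3.65 ± 0.67 and in 3B3L 2i fell by 2.69 ± 0.57 (edgeR adjusted p = 0.00198 and 0.00484), and the effects of 2i differed by -6.34 ± 0.88 (edgeR adjusted p = 0.00191). The size of these differences rested on J1 serum, with 0, 4.2 and 6.9 reads. Without its replicate 1 or 3, the rise in J1 2i was 3.06 or 4.56, the difference between the lines in serum 5.85 or 7.36, and the difference of the effects -5.75 or -7.26. Dnmt3a-008 alone had no read in J1 serum, and with that group at 3 reads per library it was at least 86.9-fold higher in 3B3L serum and at least 12.3-fold higher in J1 2i. Dnmt3a-016, a model of 3 exons near the 3' end, was assigned reads in J1 serum only. It had 107.9, 158.3 and 86 reads there, at least 43.4-fold above J1 2i and 39.2-fold above 3B3L serum. Dnmt3a-016 too has 0 bases outside the complete transcripts. The fold bounds of Dnmt3a-008 and Dnmt3a-016 hold only for the split of reads as estimated.

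**Figure D2:**
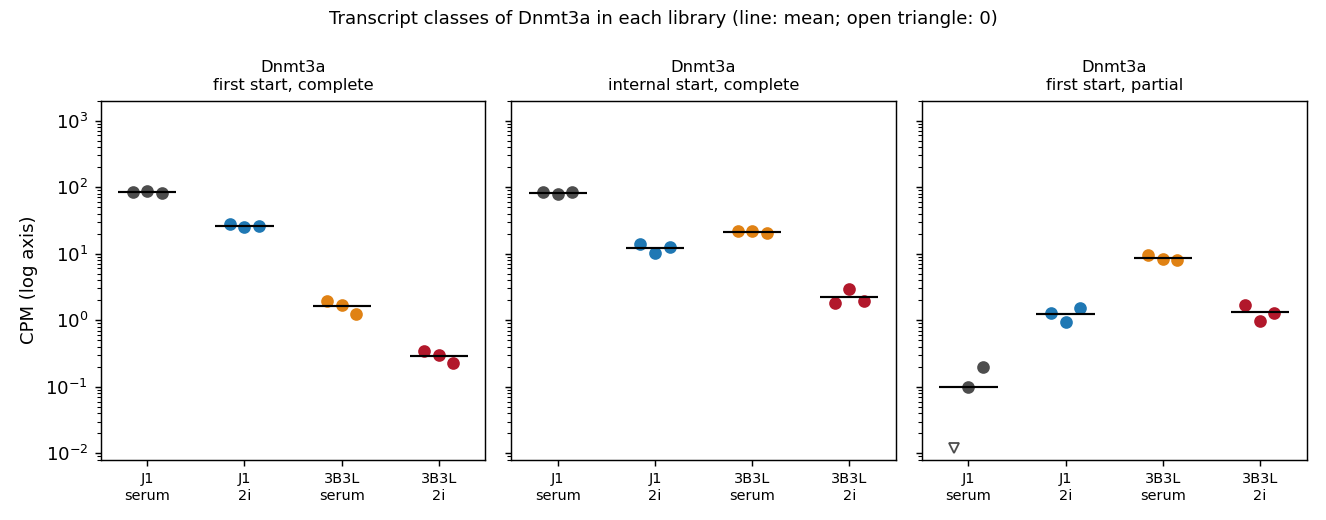
Level of 3 classes of Dnmt3a transcripts in CPM on a log axis, with 1 point per library, the group mean as a line and an open triangle for a library at 0, where first start is the upstream one and partial marks the short models. The upstream class dropped from 84.72 CPM in J1 serum to 1.632 CPM in 3B3L serum on average, while the short models rose from 0.09849 to 8.614 CPM.

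As shares of Dnmt3a TPM, which count molecules per length, the complete upstream class held 15.99% ± 0.311 in J1 serum, 25.89% ± 0.996 in J1 2i, 0.7865% ± 0.115 in 3B3L serum and 0.8202% ± 0.117 in 3B3L 2i (SD, n = 3). The internal class held 63.16% ± 3.06, 49.3% ± 3.96, 45.94% ± 1.74 and 27.76% ± 7.88 in the same order, on this scale more than the complete upstream class in every group. The short models held 0.2509% ± 0.246, 12.57% ± 2.74, 46.29% ± 1.27 and 41.79% ± 9.49. The lines did not overlap in the upstream class or in the short models, in either medium (exact permutation p = 0.1 each). The share of the internal class was 17.2 percentage points lower in 3B3L than in J1 in serum by TPM but 18.1 points higher by estimated reads. In 2i the same difference was -21.5 points by TPM and 19.6 by reads. By reads the internal class held 47.8% and the complete upstream class 49.2% in J1 serum, and 29.9% and 64.5% in J1 2i. Their order in J1 thus depended on the annotated lengths. In 3B3L the internal class was the larger by reads as well, at 66.0% against 4.99% in serum and 49.5% against 6.31% in 2i. Models of Dnmt3a annotated as retained intron held 0.07888 to 0.289 CPM over all libraries, and their level was not called between media or lines. They had 3.1 to 12 reads per library, close to the limit of 3 reads.

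Dnmt3b transcripts differed between the lines in the pair of exons shown above. Transcripts without exons 21 and 22, with or without exon 10, held 21.81%, 23.9% and 22.1% of Dnmt3b TPM in J1 serum and 45.74%, 34.8% and 43.28% in J1 2i. In 3B3L serum they held 0%, 0% and 0.07487%, and in 3B3L 2i 0%, 0.02353% and 0%. Every J1 library thus had a large part of its Dnmt3b in forms that skip the pair, and the 3B3L libraries had next to none. The share was 18.7 percentage points higher in J1 2i than in J1 serum, and the difference of 3B3L minus J1 was -22.6 points in serum and -41.3 in 2i (exact permutation p = 0.1 each, no overlap). By estimated reads the share was 23.8% in J1 serum, 44.8% in J1 2i, 0.0291% in 3B3L serum and 0.00872% in 3B3L 2i. Of 212 comparisons of shares, 115 reached the smallest exact p of 0.1, and the lowest adjusted value was 0.184.

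In reads, the transcripts that skip only this pair held 93.97, 101.6 and 95.51 CPM for J1 serum, 20.51, 14.01 and 21.67 CPM for J1 2i, 0, 0 and 0.7625 CPM in 3B3L serum, and 0, 0.2499 and 0 CPM in 3B3L 2i. Dnmt3b-007, the larger of them, was assigned no read in any 3B3L library. With 3B3L at 3 reads per library it was at least 1020-fold lower than J1 in serum and 176-fold lower in 2i. Dnmt3b-005, with the same coding sequence, took 29.4 reads in 3B3L serum replicate 3, and 1125.1, 1101.6 and 0 in J1 serum. The folds of Dnmt3b-007 thus depend on the split of reads and are no bound for the class, which averaged 97.04 CPM in J1 serum and 0.2542 in 3B3L serum. For the class of both transcripts the usage within Dnmt3b was lower in 3B3L in both media (edgeR adjusted p = 1.92e-13 and 1.03e-14). The class passed the filter on low counts only through J1, where it was high, so these p-values are a description and add no support. In J1 the change in 2i was -2.37 ± 0.57 for this class (edgeR adjusted p = 0.00948) and -3.76 ± 0.07 for the complete class (edgeR adjusted p = 8.19e-10). The usage test did not call that shift within J1 (0.64, edgeR adjusted p = 0.439), and the DESeq2 test did not call the fall of the skipping class (adjusted p = 0.39).

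**Figure D3:**
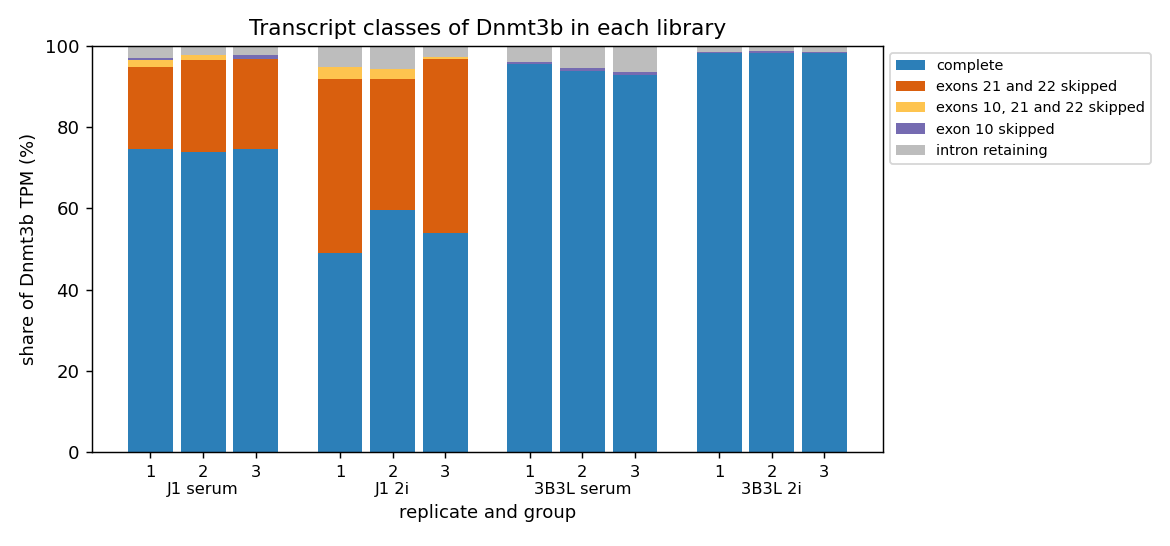
Share of Dnmt3b TPM held by each class of transcripts in percent, 1 stacked bar per library. Forms without exons 21 and 22 took 34.8% to 45.74% in J1 2i and 21.81% to 23.9% in J1 serum, and were hardly visible in 3B3L, where complete transcripts took 92.87% to 98.35%.

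Complete Dnmt3b transcripts, with all coding exons, were at 334.5, 315.6 and 315.5 CPM for J1 serum, against 21.14, 24.86 and 25.08 CPM for J1 2i. They were at 922.2, 876.4 and 866.9 CPM in 3B3L serum and 872.8, 911.2 and 900.8 CPM in 3B3L 2i. No such fall was seen in 3B3L, whose media overlapped (0.01, 95% interval -0.12 to 0.14, edgeR adjusted p = 0.928). The complete class exceeded its J1 level by 1.47 ± 0.06 in serum and 5.24 ± 0.07 under 2i (edgeR adjusted p = 1.97e-06 and 2.9e-10), and the effects of 2i differed by 3.77 ± 0.09 (edgeR adjusted p = 5.66e-08). Transcripts also differ at the start of exon 16, where Dnmt3b-001 to Dnmt3b-008 lack the first 3 bases and Dnmt3b-009 and Dnmt3b-201 have them. The form without these bases took 35.81% ± 1.44 of TPM in J1 serum, 42.93% ± 7.15 in J1 2i, 4.24% ± 0.591 in 3B3L serum and 1.739% ± 0.0527 in 3B3L 2i. All annotated transcripts that skip exons 21 and 22 carry this form, so the 2 features were not independent in the estimates. Transcripts that skip exon 10 alone were at 2.69, 0 and 3.795 CPM in J1 serum and at 0 in J1 2i. In 3B3L 2i they were at 2.239, 4.635 and 3.825 CPM, at least 51.5-fold higher than J1 2i set at 3 reads per library. This bound holds only for the split of reads as estimated, and the whole gene was higher in 3B3L 2i as well. Their usage was not called between the lines in 2i (edgeR adjusted p = 0.8), nor was their level in serum (edgeR adjusted p = 0.465). They took under 1% of TPM in every library.

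Intron-retaining Dnmt3b transcripts (Dnmt3b-010 and Dnmt3b-011) fell in 2i in both lines, where complete Dnmt3b was called lower in J1 and not in 3B3L. They were at 1.802, 1.252 and 1.311 CPM for J1 serum, against 0.3367, 0.3153 and 0.1704 CPM for J1 2i. In 3B3L they were at 5.569, 7.085 and 8.23 CPM in serum and 1.869, 1.863 and 1.925 CPM in 2i, without overlap between media in either line. The change was -2.39 ± 0.27 in J1 and -1.88 ± 0.26 in 3B3L (edgeR adjusted p = 8.84e-05 and 0.000275), and the difference of these effects was 0.51 (95% interval -0.29 to 1.31, edgeR adjusted p = 0.471). Their level was higher in 3B3L than in J1 by 2.26 ± 0.26 in serum and 2.77 ± 0.28 under 2i (edgeR adjusted p = 0.00045 and 0.000122). Per 1000 reads of complete transcripts there were 4.5 ± 0.788 intron-retaining reads in J1 serum, 11.7 ± 4.61 in J1 2i, 7.87 ± 1.73 in 3B3L serum and 2.11 ± 0.0589 in 3B3L 2i (SD, n = 3). The value for J1 2i rests on 14.9, 13.7 and 6.9 intron-retaining reads. The ratio differed without overlap between the media of each line and between the lines in each medium (exact permutation p = 0.1 each, 0.133 after adjustment over 8 comparisons). The usage test of this class in 3B3L 2i gave -1.30 with an edgeR adjusted p = 1, and 0.0089 in a fit to the 6 libraries compared. Whether the construct of the Dnmt3b transgene holds introns is not given in the sources used here.

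Dnmt3l was likewise divided into complete transcripts and a minor class. Complete transcripts (Dnmt3l-001, Dnmt3l-002 and Dnmt3l-003, coding sequence 1266 bases) were at 291.7, 294.5 and 292.2 CPM for J1 serum, against 54.29, 46.62 and 54.78 CPM for J1 2i, and at 511.3, 498.7 and 454.1 CPM in 3B3L serum and 273.3, 284.2 and 284.9 CPM in 3B3L 2i. Their change in 2i was -2.50 ± 0.07 in J1 and -0.80 ± 0.06 in 3B3L (edgeR adjusted p = 4.53e-09 and 5.71e-06), and these effects differed by 1.70 ± 0.09 (edgeR adjusted p = 1.14e-05). The minor class holds Dnmt3l-004, Dnmt3l-005 and Dnmt3l-006, annotated as coding with a start 5493 bases after that of Dnmt3l-003, and Dnmt3l-008, annotated as a retained intron. The coding models took 558.5 of its 624.1 reads, or 89.5%, so it is not a measure of intron retention. The class was at 2.394, 1.452 and 1.73 CPM for J1 serum, against 0.3367, 0.3828 and 0.2191 CPM for J1 2i. It was at 2.601, 2.781 and 2.945 CPM in 3B3L serum and 0.3462, 0.1818 and 0.425 CPM in 3B3L 2i. In contrast to the complete class, the 2i groups of the lines overlapped here.

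The minor class of Dnmt3l changed in 2i by -2.56 ± 0.35 in J1 and -3.12 ± 0.35 in 3B3L (edgeR adjusted p = 0.000271 and 7.2e-05). Between the lines it differed by 0.58 in serum (95% interval -0.13 to 1.29, edgeR adjusted p = 0.321) and 0.02 in 2i (-0.75 to 0.78, edgeR adjusted p = 0.993), where complete transcripts were higher in 3B3L by 0.74 ± 0.06 and 2.44 ± 0.07 (edgeR adjusted p = 8.03e-05 and 8.47e-08). Per 1000 complete reads there were 6.34 ± 1.71 reads of the minor class in J1 serum, 6.19 ± 1.98 in J1 2i, 5.73 ± 0.7 in 3B3L serum and 1.12 ± 0.459 in 3B3L 2i (SD, n = 3). 3B3L 2i, at 0.605 to 1.49, had no overlap against 3B3L serum or J1 2i (exact permutation p = 0.1). The exact p was 0.9 between the media in J1 and 0.7 between the lines in serum. For usage in 3B3L 2i, the test gave -1.60 (edgeR adjusted p = 0.0905, and 0.0342 with the 6 libraries compared).

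**Figure D4:**
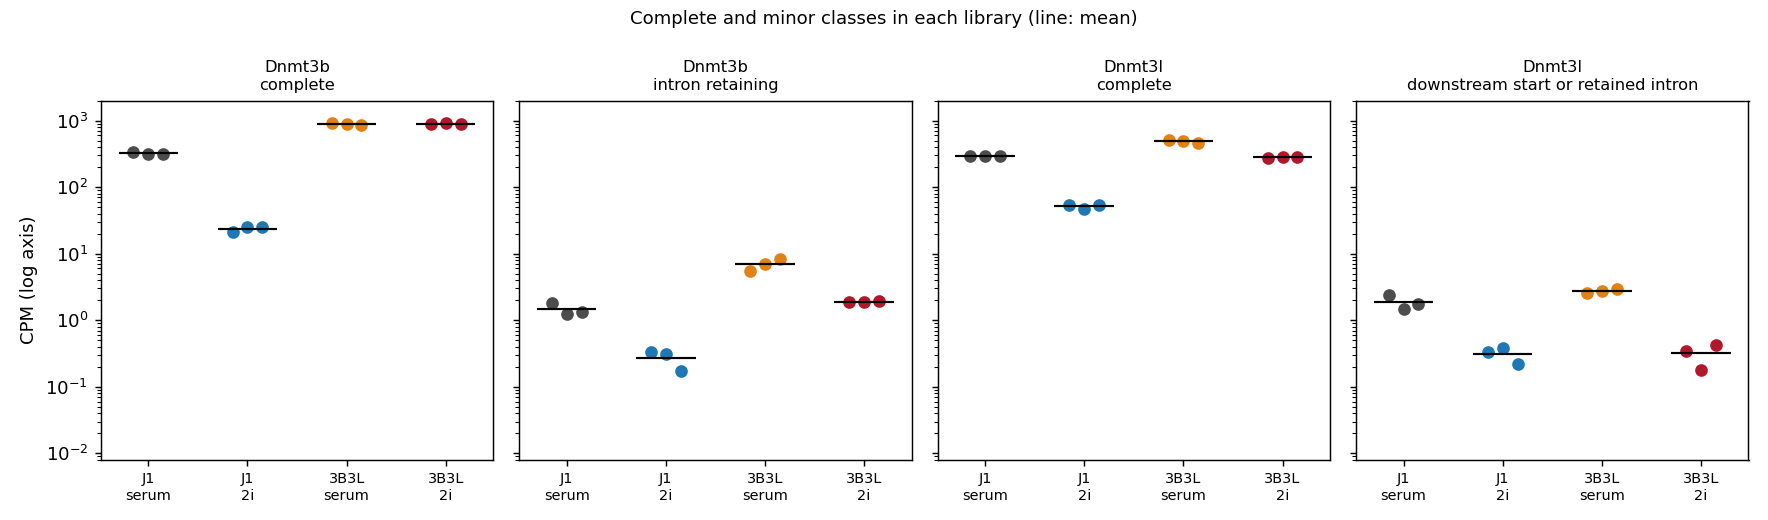
Complete transcripts and the minor class of Dnmt3b (intron retaining) and of Dnmt3l (downstream start or retained intron) in CPM on a log axis, with 1 point per library and the group mean as a line. In 3B3L the complete class of Dnmt3b stayed between 866.9 and 922.2 CPM, while its intron-retaining class went from 5.569 to 8.23 CPM in serum down to 1.863 to 1.925 CPM in 2i.

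**Figure D5:**
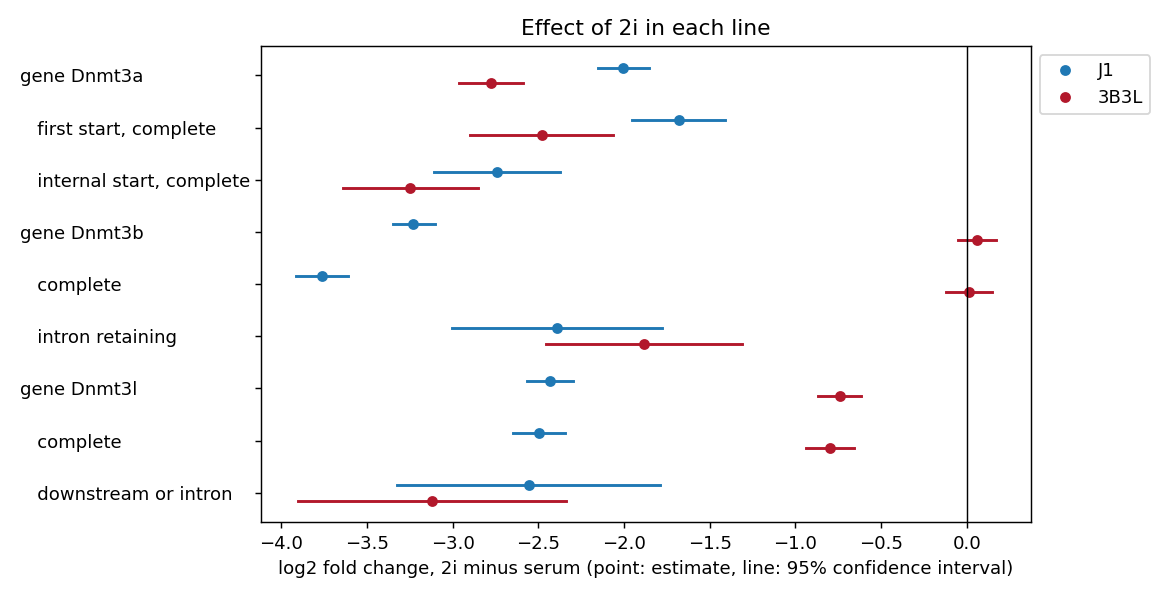
Log2 fold change of 2i minus serum in J1 and 3B3L for each gene and for classes of its transcripts, with the edgeR estimate as a point and its 95% interval as a line. The lines part by 3.29 for the gene Dnmt3b and by 1.69 for Dnmt3l, and their intervals overlap for the minor class of each of these genes (intron retaining, and downstream start or retained intron).

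The share of Dnmt3l taken by Dnmt3l-002 and Dnmt3l-003, which start close to each other, varied between groups. Dnmt3l-002, whose first base lies 117 bases after that of Dnmt3l-003, held 59.12%, 61.57% and 59.21% of Dnmt3l TPM in J1 serum and 46.5%, 46.05% and 42.54% in J1 2i. In 3B3L it held 71.88%, 68.88% and 71.6% in serum and 59.24%, 62.65% and 62.09% in 2i. The share was lower in 2i in both lines and higher in 3B3L in both media, with overlap only between J1 serum and 3B3L 2i. The change in 2i was -2.90 ± 0.07 in J1 and -1.02 ± 0.07 in 3B3L for Dnmt3l-002 (edgeR adjusted p = 3.32e-09 and 1.2e-06), and -2.10 ± 0.09 and -0.35 ± 0.09 for Dnmt3l-003 (edgeR adjusted p = 7.71e-08 and 0.0101). In J1 usage was not called for either transcript (edgeR adjusted p = 0.063 and 0.117), and in 3B3L 2i it was called for Dnmt3l-003 (0.31, edgeR adjusted p = 0.0439, beside 1.84% of transcripts), 1 of 3 member transcripts with such a call there. That count was 0 without 3B3L 2i replicate 1, and 1 without 3B3L 2i replicate 2 or without 3B3L serum replicate 3.

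Dnmt3l-001, which starts 7555 bases upstream of Dnmt3l-003, was rare. It held 72.3, 97.1 and 46.8 reads in J1 serum, 94, 55.4 and 63.3 in J1 2i, 45.5, 64.3 and 57.7 in 3B3L serum, and 22, 38.1 and 13 in 3B3L 2i. J1 serum and J1 2i overlapped, and the 3B3L 2i libraries were the lowest. The change in J1 2i was -0.18 (95% interval -0.99 to 0.64, edgeR adjusted p = 0.774) and that in 3B3L 2i was -1.32 ± 0.38 (edgeR adjusted p = 0.0235). The difference of 3B3L minus J1 in 2i was -1.52 ± 0.38 (edgeR adjusted p = 0.0231), with lower usage (-2.74, adjusted p = 0.000429). The other complete Dnmt3l transcripts were higher in 3B3L in that comparison.

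Reads of related sequences were few. Gm14490, the rodent paralog Dnmt3c that arose from Dnmt3b, held 0 to 20.8 reads per library and the pseudogene Dnmt3l-ps1 at most 4. Sequence is shared between these and the members, so reads could be split between them. Gm14490 was highest in 3B3L serum and lowest in J1 2i, with 13.3 to 20.8 reads in 3B3L serum, 3.2 to 7.7 in J1 serum, 1.1 to 7.9 in 3B3L 2i and 0 to 1.1 in J1 2i.

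A list of 32 genes, called partners here, covered maintenance and oxidation of DNA methylation, related family genes, regulators, chromatin factors, histone methylation and readers of methylated DNA. All 32 were tested, and 10 were higher and 11 lower in J1 2i than in J1 serum. In 3B3L 2i, 11 were higher and 13 lower than in 3B3L serum. Their share of calls, 21 and 24 of 32, stood beside 66.1% and 65.4% of all genes, and their median log2 change was 0.01 and -0.08 beside 0.01 and 0.01 for all genes. Prdm14, the repressor named above, stood at 17.16 ± 0.691 CPM in J1 serum, 42.62 ± 1.63 in J1 2i, 12.43 ± 0.36 in 3B3L serum and 47.64 ± 2.15 in 3B3L 2i (SD, n = 3). It was higher in 2i in both lines (edgeR adjusted p = 1.04e-11 and 1.19e-13), and the effect was larger in 3B3L by 0.63 (edgeR adjusted p = 2.87e-05). Uhrf1, which brings maintenance methylation to replicating DNA, rose by 1.09 in J1 and 0.99 in 3B3L (edgeR adjusted p = 8.36e-12 and 1.92e-11), and Dnmt1, the maintenance enzyme, by 0.34 and 0.38 (edgeR adjusted p = 1.32e-05 and 4.36e-06). Dppa3, which encodes an inhibitor of UHRF1, changed by -2.25 and -3.22 (edgeR adjusted p = 5.99e-13 and 2.03e-14).

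Some partners responded to 2i in opposite directions in the lines. Tet3, an enzyme that oxidises methylcytosine, stood at 13.03 ± 0.514 CPM in J1 serum, 19.2 ± 0.684 in J1 2i, 13.35 ± 1.3 in 3B3L serum and 6.532 ± 0.261 in 3B3L 2i, and its effects of 2i differed by -1.59 (edgeR adjusted p = 5.31e-08). Whsc1 (Nsd2), a writer of H3K36 methylation, changed by 0.62 in J1 and -0.36 in 3B3L (difference -0.98, edgeR adjusted p = 5.05e-07). Mbd1, a reader of methylated DNA, changed by -0.20 in J1 and 0.54 in 3B3L (difference 0.74, edgeR adjusted p = 1.97e-05). In the difference of the effects, 6 partners were higher, 6 lower and 20 not called, where 34.7% of all genes were called. Between the lines, 13 partners were higher and 5 lower in 3B3L in serum (38.7% of all genes called) and 10 higher and 6 lower in 2i (45.9%). The count in serum was 11 in place of 18 without 3B3L serum replicate 2.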

How the data were processed

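Poly(A) RNA was sequenced as stranded libraries from 12 cultures, and Sailfish was run by the authors on mm10 models with the stranded library setting (models named RefSeq in their methods, with Ensembl identifiers in the tables). The authors deposited estimated counts per transcript and TPM for each library, and a tximport table of estimated counts per gene that is not scaled for library size or length. Whether transgene sequences were quantified apart, and which of the sequencing pools held a library, is not given in the sources used here. Estimated counts were rounded. Genes (17885) and transcripts (44389) kept by filterByExpr were fitted with edgeR 4.0.16 in R 4.3.3 (TMM factors 0.97 to 1.038, quasi-likelihood test, 1 coefficient per group, 12 libraries), with Benjamini-Hochberg adjustment over all features of a contrast and calls at 0.05. The biological coefficient of variation was 6.49% for genes and 46.1% for transcripts. Usage was tested with diffSpliceDGE. Classes of transcripts were formed from the annotation after the data were seen, replaced their members in the transcript table and were fitted with it. Transcript structures (GENCODE vM1, NCBIM37) were matched by identifier, and lengths agreed for 38 of 38 members. Alternatives were DESeq2 1.42.0, its size factors, other filters, length offsets, the replicate block, only the libraries compared, estimated reads for TPM, and leaving out each library. Scripts were tested on simulated data. The members, the partner list and the tests were chosen with earlier results of these data known. Named genes are the members, the 32 partners, neighbouring genes and, for each member, the 3 genes with the highest Pearson r. Replicates differed by 4.5 to 30.1 times the counting variance, so none was a duplicate.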

Additional observations from a re-analysis of the deposited data

Results flagged for a closer look

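Without length offsets, the effect of 2i differed between the lines by a test of the difference itself for each member. The difference, 3B3L minus J1, was -0.77 for Dnmt3a, 3.29 for Dnmt3b and 1.69 for Dnmt3l, with edgeR adjusted p = 7.99e-05, 4.32e-13 and 2.42e-09. It was also called for the short upstream models of Dnmt3a at -6.34, for complete Dnmt3b transcripts at 3.77 and for complete Dnmt3l transcripts at 1.70, with edgeR adjusted p = 0.00191, 5.66e-08 and 1.14e-05. The value for the short models rests on J1 serum libraries with 0, 4.2 and 6.9 reads and on how shared reads were split. For the gene Dnmt3a, length offsets gave a difference of -0.13, which was not called (edgeR adjusted p = 0.501).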

How the results depend on the processing

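The 18 log2 fold changes of the member genes kept their direction and their side of the threshold in 332 of 339 alternatives. With length offsets the difference of the 2i effects of Dnmt3a was -0.13 and no longer called. Dnmt3l in 3B3L 2i against J1 serum, not called in any fit, changed sign with no filter (-0.011) and with at least 10 counts in every library (-0.025) and ranged from -0.005 to 0.037 when single libraries were left out. Uncalled class differences also changed sign, and ranged with single libraries left out from -0.011 (without 3B3L serum replicate 3) to 0.041 for complete Dnmt3b in 3B3L 2i, from -0.121 (without 3B3L 2i replicate 1) to 0.274 for the short Dnmt3a models between lines in 2i, and from -0.243 to 0.297 for the minor Dnmt3l class between lines in 2i. Complete Dnmt3b in 3B3L 2i was -0.003 with the compared libraries alone, and the minor Dnmt3l class between lines in 2i was -0.016 with the replicate block. Member transcripts called in the difference of effects numbered 10 by DESeq2 in place of 6, and usage calls in 3B3L 2i 5 with only the libraries compared in place of 3. By estimated reads in place of TPM, the share of skipping Dnmt3b between lines in serum was -23.8 points, that of the internal Dnmt3a class -17.9 for 2i in J1, 18.1 between lines in serum and 19.6 in 2i, and that of the upstream class 15.2 for 2i in J1, 1.31 in 3B3L, -44.3 between lines in serum and -58.2 in 2i. The causes were not tested. Leaving out single libraries gave 11 to 20 partners called between lines in serum, 7 to 12 member transcripts called in 3B3L 2i, and 0 to 4 and 1 to 3 usage calls in 3B3L 2i and in the difference of effects. Same-numbered replicates had deviations that correlated between -0.467 and 0.184 over 18 pairs, and the main fits did not treat the numbers as pairs. With 3 replicates per group, these values cannot exclude that same-numbered samples were handled together. The replicate block changed no call of a member gene, left 90.7% to 97.8% of the counts of all genes called and moved the partners called between lines in serum from 18 to 13. The usage of the internal Dnmt3a class for 2i in J1 was not called with no filter or with the replicate block (edgeR adjusted p = 0.152 and 0.0573). The depth allowed no statement on transcripts below 3 reads per library.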

Other observations

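Genes whose log2 level ran most closely with a member over the 12 libraries, among 9400 genes averaging 10 CPM or more, were Cnot8, Snap47 and Gemin5 for Dnmt3a (Pearson r 0.9941, 0.9924 and 0.991), Etv5, Pcbp2 and Mtrr for Dnmt3b (0.9898, 0.9896 and 0.9867), and Eftud1, Zfyve1 and Arhgef7 for Dnmt3l (0.9932, 0.9905 and 0.9888). These values describe 4 groups of 3 libraries with common culture conditions and are no test. Their range was narrower than that of the members: Etv5, a transcription factor of the PEA3 group, stood at 297 ± 10 CPM in J1 2i and between 454.6 and 509 on average in the other groups, where Dnmt3b stood at 44.1 and between 413 and 928.1.

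Of the genes next to the members, Aire overlaps the first bases of Dnmt3l (chr10:78030022-78043610 in GRCm38). Its change in 2i was -0.67 in J1 and -1.76 in 3B3L (edgeR adjusted p = 7.45e-06 and 7.59e-11), and the effects differed by -1.09 (edgeR adjusted p = 1.08e-05). Commd7, the neighbour upstream of Dnmt3b, changed by 0.14 in J1 2i (edgeR adjusted p = 0.0623) and rose by 0.67 in 3B3L 2i (edgeR adjusted p = 1.38e-07).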
